A study of Mus musculus with 6 samples.

Results

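Chemokine ligands were examined as 10 genes, Ccl2, Ccl5, Ccl6, Ccl7, Ccl9, Cxcl1, Cxcl9, Cxcl10, Cxcl12 and Cxcl16, of 24972 gene rows in the deposited table. They were taken by name, and 10 of 10 were present. RNA came from the cardiomyocyte fraction of 6 MX1gfp mice, which carry green fluorescent protein at the interferon-inducible gene Mx1. In both groups the allele was the same, and the labels state neither age nor sex. The 3 vehicle mice received 100 microlitres of phosphate buffered saline into the peritoneum, and the 3 doxorubicin mice received doxorubicin at 25 mg per kg in the same volume. Doxorubicin is an anthracycline that poisons topoisomerase II and damages DNA. Hearts were digested 48 hours later, and ventricular myocytes were collected by settling under gravity, a step that enriches myocytes without sorting them, so other cells of the heart can remain.

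Chemokines are small secreted proteins that steer leukocytes along gradients by binding G protein-coupled receptors. They are named by the spacing of their first cysteines, adjacent in the CC ligands (Ccl genes) and separated by another residue in the CXC ligands (Cxcl genes). Stromal cells, endothelium and resident macrophages of the heart are known sources. Ccl2 and Ccl7 draw monocytes through Ccr2, Ccl6 and Ccl9 act on Ccr1, and Ccl5 acts on receptors that include Ccr1 and Ccr3. Cxcl9 and Cxcl10 draw activated T cells through Cxcr3, Cxcl1 draws neutrophils through Cxcr2, Cxcl12 acts on Cxcr4 and Ackr3, and the membrane-bound Cxcl16 acts on Cxcr6.

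Promoter sequence was taken from RefSeq (GRCm38.p6, the same assembly as mm10) and covered 6 of the 10 genes: Ccl6, Ccl9, Cxcl1, Cxcl9, Cxcl10 and Cxcl12. The 250 bases before the start site were searched on both strands for GAAANNGAA, the core of the interferon-stimulated response element, for GGGANNTNC, a pattern like the NF-kappaB site, and for TTCNNNGAA, a pattern like the interferon-gamma activated site. Among 32851 such windows of RefSeq promoters, 7.13% held the first, 12.5% the second and 7.02% the third. The windows of Cxcl10, Cxcl9 and Cxcl1 are shown because they hold a match and because the first pair are neighbours whose values differed in pattern. The letters of the 3 patterns were settled after matches in these windows had been seen, so the matches support nothing. Capitals mark them, and the sequences read 5′ to 3′ towards the gene.
Cxcl10 (chr5:92348890-92349139, minus strand): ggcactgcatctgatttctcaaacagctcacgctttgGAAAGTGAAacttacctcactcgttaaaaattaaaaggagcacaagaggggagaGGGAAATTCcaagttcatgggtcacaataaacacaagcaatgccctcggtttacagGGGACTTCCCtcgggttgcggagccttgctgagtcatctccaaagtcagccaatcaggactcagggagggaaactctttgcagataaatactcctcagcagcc
Cxcl9 (chr5:92328080-92328329, minus strand): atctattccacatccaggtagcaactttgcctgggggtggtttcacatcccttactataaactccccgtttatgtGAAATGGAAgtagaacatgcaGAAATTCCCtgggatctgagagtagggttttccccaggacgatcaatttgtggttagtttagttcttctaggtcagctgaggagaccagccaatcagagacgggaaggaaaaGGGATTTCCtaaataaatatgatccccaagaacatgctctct
Cxcl1 (chr5:90890995-90891244, plus strand): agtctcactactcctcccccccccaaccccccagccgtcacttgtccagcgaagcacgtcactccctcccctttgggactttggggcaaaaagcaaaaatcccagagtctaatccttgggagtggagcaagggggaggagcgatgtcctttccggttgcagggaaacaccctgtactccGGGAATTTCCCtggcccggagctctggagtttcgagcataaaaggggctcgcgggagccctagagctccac
Cxcl10 held 1 match to the response element core, GAAAGTGAA, ending 205 bases before the start site. It also held 3 matches to the NF-kappaB-like pattern, 1 in GGGAAATTC and 2 that overlap on opposite strands in GGGACTTCCC. Cxcl9 held 1 match to the core, GAAATGGAA, and 2 to the NF-kappaB-like pattern, GGGATTTCC and, on the opposite strand and printed as it reads here, GAAATTCCC. Cxcl1 held 2 NF-kappaB-like matches, which overlap on opposite strands within GGGAATTTCCC. The third pattern had no match in these 6 windows, and the windows of Ccl6, Ccl9 and Cxcl12 held none of the 3.

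Ccl6 and Ccl9, which were highest in the same 2 libraries, are next shown with their 13-base stretch in common in capitals, the single run of at least 12 bases found in the same order in both windows. It lies 55 to 43 bases before the start site of Ccl6 and 14 to 2 bases before that of Ccl9. That stretch was present in 5 of the 32851 windows (0.0152%), the windows of Ccl6 and Ccl9 included. It was picked by comparing these windows with each other, so its low share supports nothing.
Ccl6 (chr11:83593088-83593337, minus strand): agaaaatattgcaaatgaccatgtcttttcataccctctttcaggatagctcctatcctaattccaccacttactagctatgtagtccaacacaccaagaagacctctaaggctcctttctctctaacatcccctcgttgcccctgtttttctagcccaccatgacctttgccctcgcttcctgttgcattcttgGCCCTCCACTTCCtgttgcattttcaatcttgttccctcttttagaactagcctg
Ccl9 (chr11:83578637-83578886, minus strand): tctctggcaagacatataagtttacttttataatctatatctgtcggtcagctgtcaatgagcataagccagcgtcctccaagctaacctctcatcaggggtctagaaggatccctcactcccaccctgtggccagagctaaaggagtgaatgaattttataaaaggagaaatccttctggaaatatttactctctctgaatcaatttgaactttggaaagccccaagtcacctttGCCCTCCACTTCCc
A match is a description of letters in the window, and binding at these positions was not measured.

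The authors deposited normalized read counts, with column totals of 7217949 to 7500386 for vehicle and 5410780 to 6498373 for doxorubicin. From the spacing of the low values, about 7710000 to 11400000 reads lay behind each vehicle library and 3670000 to 6170000 behind each doxorubicin library, so depth and treatment cannot be told apart. Doxorubicin replicate 1 lay near the vehicle libraries (Spearman correlation across 12477 genes 0.977 to 0.982), while replicates 2 and 3 stood apart from them (0.860 to 0.914). All 10 cardiomyocyte markers listed for this check were present. Their share of all counts was 8.85% to 9.92% with vehicle and 8.51%, 3.11% and 2.99% with doxorubicin (replicates 1 to 3).

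Most of the chemokine ligands had higher values after doxorubicin. In 9 of 10 the log2 fold change was positive, against 49.6% of all genes tested, and in 6 of 10 (Ccl2, Ccl6, Ccl7, Ccl9, Cxcl10 and Cxcl16) every doxorubicin library lay above every vehicle library, against 19.2% of the 12477 genes tested. None of the 10 was lower in that sense, against 22.6% of all genes. The median log2 fold change of the 10 was 1.42, with a range of -0.34 to 3.34, while the median of all genes tested was -0.0046. Genes needed a mean of at least 10 over the 6 libraries to be tested. Ccl5 and Cxcl10 passed that minimum through the doxorubicin libraries alone, and among the other 8 the count was 5 and the median 1.32. Of the 12144 tested genes with a vehicle mean of at least 10, 2251 were higher in that sense, and their median was -0.02.

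With limma on log2(value + 1) and Benjamini-Hochberg adjustment over all genes tested, 0 of the 10 passed an adjusted p of 0.05, as did 0 of all genes (0% higher and 0% lower). At an unadjusted p under 0.05 the same 6 ligands were higher, against 16.7% of all genes. Doxorubicin replicate 1 decided the number called. Without it limma called 8 of the 10 higher (all but Cxcl9 and Cxcl12), with adjusted p from 4.42e-05 to 0.0469, against 19.3% of all genes. With limma's library weights 4 were called higher (Ccl2, Ccl6, Ccl9 and Cxcl16), against 15.7%. Over all alternatives that kept doxorubicin replicate 1, the adjusted p of these 8 ran from 0.00482 to 0.477. Fold changes below compare doxorubicin with vehicle, positive where doxorubicin is higher, on the log2(value + 1) scale and with a standard error (SE). The values of a group are listed in the order of replicates 1, 2 and 3.

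The doxorubicin libraries were not alike. Replicate 1 lay above every vehicle library in 7 of the 10 ligands, replicate 2 in 8 and replicate 3 in 9, against 29.4%, 39.8% and 42.3% of all genes. Replicate 3 was the highest of the 6 libraries in 8 ligands, against 28.5% of all genes. Ccl5 and Cxcl10, which reached the minimum mean through the doxorubicin libraries alone, are among them. Of the 8 ligands with a vehicle mean of at least 10, replicates 1 to 3 lay above every vehicle library in 6, 6 and 7. Among all 12144 genes with such a vehicle mean, 3483, 4697 and 4976 did so. Replicate 3 was the highest in 6 of those 8 ligands and in 3374 of the 12144 genes. The median difference of the 10 from the vehicle mean was 0.71, 1.07 and 2.43 in replicates 1 to 3, and without replicate 3 the median log2 fold change was 0.92.

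**Figure D1:**
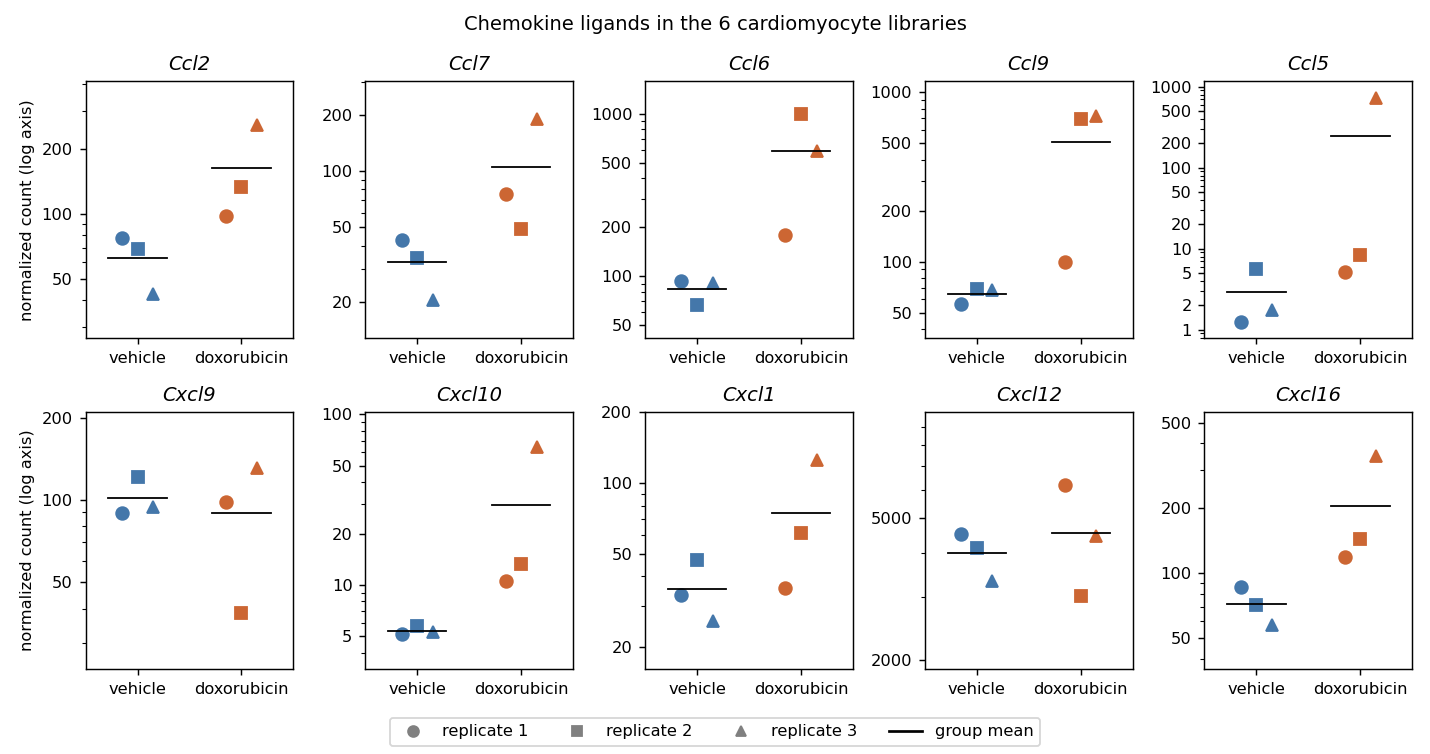
Normalized counts (log axis, scale differing between panels) of the 10 chemokine ligands in the 3 vehicle and 3 doxorubicin libraries, 1 symbol per library with the arithmetic group mean as a line. In Ccl2, Ccl6, Ccl7, Ccl9, Cxcl10 and Cxcl16 the groups do not overlap, and the Ccl5 mean rests on doxorubicin replicate 3 at 734.

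The monocyte attractants Ccl2 and Ccl7 are neighbours on chromosome 11, with 8.3 kb between them. Ccl2 (chr11:82035577-82037452) had 77.5, 69.0 and 42.6 normalized counts with vehicle and 98.0, 134.5 and 259 with doxorubicin. The group means were 63.0 ± 18.2 and 164 ± 84.5 (SD, n = 3 per group), and the log2 fold change was 1.29 (SE 0.38; limma adjusted p 0.086). All 3 doxorubicin libraries were above the vehicle libraries, and replicate 3 was the highest. Ccl7 (chr11:82045712-82047525) had 43.1, 34.5 and 20.4 with vehicle and 75.3, 49.0 and 190 with doxorubicin. Its log2 fold change was 1.48 (SE 0.51, adjusted p 0.093), and it was 0.94 without doxorubicin replicate 3. The groups did not overlap, although doxorubicin replicate 2 exceeded the highest vehicle library by little. The close relative Ccl12, which shares sequence with Ccl2, had 7.63 to 14.7 with vehicle and 24.0 to 32.7 with doxorubicin (log2 fold change 1.23, SE 0.37, limma adjusted p 0.086). Whether reads were divided between Ccl2 and Ccl12 was not checked.

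Ccl6 and Ccl9, the Ccr1 ligands of myeloid cells, lie 9.2 kb apart on chromosome 11, and both were high in doxorubicin replicates 2 and 3. Ccl6 (chr11:83587886-83593087) had 92.9, 66.3 and 91.1 with vehicle and 179, 992 and 585 with doxorubicin. Ccl9 (chr11:83572917-83578636) had 56.3, 69.3 and 67.7, then 99.5, 693 and 728. For both genes replicates 2 and 3 lay far above the vehicle range and replicate 1 lay above it by less. Group means were 83.4 ± 14.8 and 586 ± 407 for Ccl6 (SD, n = 3), 2.50 on the log2 scale (SE 0.56; limma adjusted p 0.086), and 64.5 ± 7.09 and 507 ± 353 for Ccl9, or 2.51 (SE 0.70; adjusted p 0.086). These were the largest differences among the ligands with a vehicle mean of at least 10. Leaving out doxorubicin replicate 1 gave 3.19 and 3.45, and leaving out replicate 2 gave 1.96 and 2.05.

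Ccl5 (chr11:83525778-83530518), the ligand known as RANTES, which T cells, platelets and activated macrophages make, was near 0 in 5 libraries. It had 1.25, 5.67 and 1.75 with vehicle and 5.22, 8.45 and 734 with doxorubicin. By the spacing of the low values these correspond to about 2, 6, 2, 5, 7 and 497 reads. A single library therefore carried the doxorubicin mean, the groups overlapped, and the log2 fold change, 3.34 (SE 1.69; limma adjusted p 0.190), became 1.15 without that library. Ccl5 lies 42.4 kb from Ccl9, yet its value in doxorubicin replicate 2 was within 3 counts of the highest vehicle library.

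**Figure D2:**
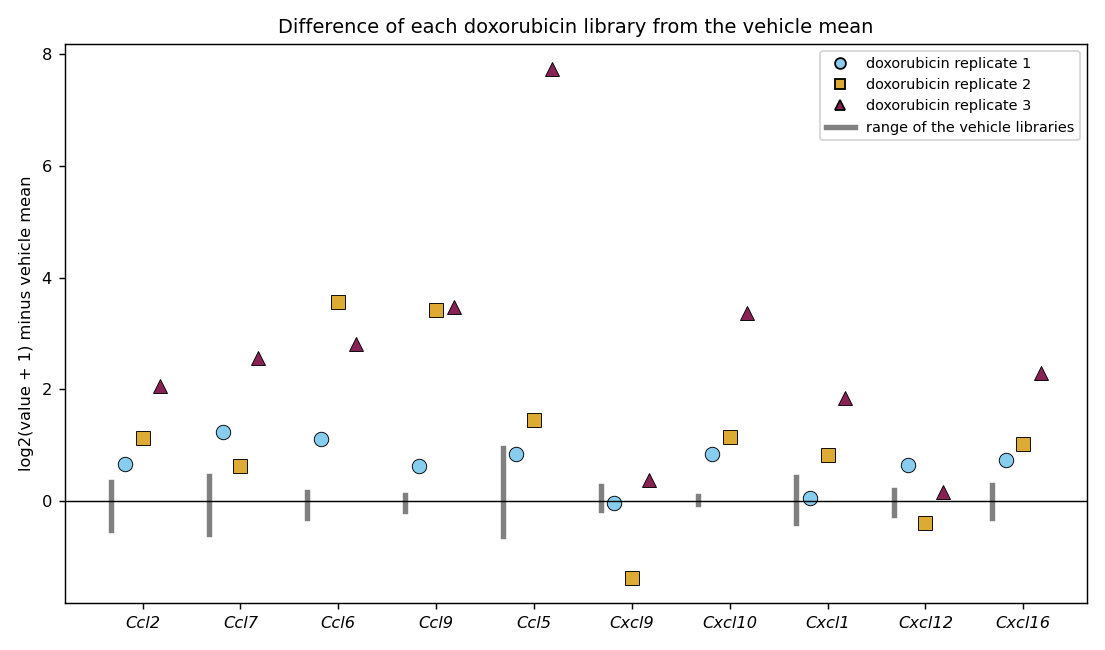
Difference of each doxorubicin library from the vehicle mean on the log2(value + 1) scale for the 10 chemokine ligands, with the range of the vehicle libraries as a grey bar. Ccl6 and Ccl9 are high in replicates 2 and 3 (2.81 to 3.57), whereas Ccl5 reaches 7.73 in replicate 3 and 1.45 in replicate 2, and Cxcl9 is below the vehicle range in replicate 2 (-1.37).

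The Cxcr3 ligands Cxcl9 and Cxcl10, both known as interferon-induced genes, are separated by 18.6 kb on chromosome 5. Cxcl10 (chr5:92346638-92348889) had 5.12, 5.76 and 5.28 with vehicle and 10.5, 13.2 and 64.7 with doxorubicin, or about 6 to 8 reads against 10, 11 and 44. The groups did not overlap, with means of 5.39 ± 0.333 and 29.5 ± 30.6 (SD, n = 3). The vehicle libraries were close together, but at this depth the difference of replicates 1 and 2 rests on few reads. Its log2 fold change was 1.79 (SE 0.70, limma adjusted p 0.116) and was 1.00 without doxorubicin replicate 3. Cxcl9 (chr5:92321331-92328079) had 89.6, 121 and 94.1 with vehicle and 98.5, 38.4 and 131 with doxorubicin. Its replicate 2 lay below and its replicate 3 above all vehicle libraries, so the groups overlapped, and the log2 fold change, -0.34 (SE 0.42; limma adjusted p 0.582), turned to 0.17 without doxorubicin replicate 2. The neighbouring pair thus had opposite signs with all 6 libraries and the same sign without doxorubicin replicate 2.

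Cxcl1 (chr5:90891245-90893121), a neutrophil attractant, had 33.4, 46.8 and 25.7 with vehicle and 35.6, 61.3 and 126 with doxorubicin. Doxorubicin replicate 1 lay inside the vehicle range, so the groups overlapped. The log2 fold change was 0.90 (SE 0.46, limma adjusted p 0.190) and 0.44 without doxorubicin replicate 3. Cxcl2, a second neutrophil attractant named after its values were seen, had 19.5 to 38.4 with vehicle and 70.2, 50.4 and 178 with doxorubicin, with a difference of 1.49 on the log2 scale (SE 0.48; limma adjusted p 0.088) and no overlap of the groups.

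Cxcl12 (chr6:117168535-117181368), which retains and guides CXCR4-bearing cells and is made by stroma and endothelium, had the highest normalized count of the 10 ligands in every library. It had 4510, 4113 and 3326 with vehicle and 6183, 3023 and 4439 with doxorubicin. The highest and the lowest value were both in doxorubicin libraries. Means of 3983 ± 603 and 4548 ± 1583 (SD, n = 3) gave a difference of 0.14 on the log2 scale (SE 0.29; limma adjusted p 0.747), within the spread between replicates. It was 0.41 without doxorubicin replicate 2 and -0.11 without doxorubicin replicate 1, and equal library totals, which moved the median of all genes to 0.30, gave 0.44. Quantile normalization gave 0.54, the highest of the alternatives run. Cxcl12 made up 89.1% to 90.3% of the summed counts of the 10 ligands with vehicle and 89.6%, 58.6% and 58.4% with doxorubicin.

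Cxcl16 (chr11:70454389-70459984), a ligand that is anchored in the membrane of macrophages and endothelium and can be shed by the protease Adam10, had 86.5, 70.9 and 57.4 in the vehicle libraries. In doxorubicin replicates 1 to 3 it had 118, 145 and 350.3. The groups did not overlap and differed by 1.35 on the log2 scale (SE 0.39, limma adjusted p 0.086), or 0.88 without doxorubicin replicate 3. Its order among the libraries, replicate 3 highest and replicate 1 lowest of the doxorubicin group, was also that of Ccl2, Ccl5, Ccl9, Cxcl1 and Cxcl10. How many of all genes have that order was not counted.

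Levels of different genes were compared per kilobase of the longest coding transcript in GENCODE M21. In the vehicle libraries Cxcl12 stood first at 708 ± 107 normalized counts per kb (SD, n = 3), a low estimate because its coding transcripts run from 1878 to 5627 bases. Ccl2 at 77.6 ± 22.4, Ccl6 at 57.9 ± 10.3, Ccl7 at 40.8 ± 14.3, Cxcl1 at 37.0 ± 11.2, Cxcl9 at 35.2 ± 5.96, Cxcl16 at 26.5 ± 5.41 and Ccl9 at 21.4 ± 2.36 followed, each overlapping the next in range. Ccl5 at 5.43 ± 4.54 and Cxcl10 at 3.98 ± 0.246 came last, below the others and overlapping each other. In the doxorubicin libraries every neighbour in the order overlapped the next, from Cxcl12 at 808 ± 281 to Cxcl10 at 21.8 ± 22.6, and Cxcl9 at 30.9 ± 16.3 stood next to last. Cxcl12 was not first per kb in each of them: in replicate 2 Ccl6 was at 689 and Cxcl12 at 537, and in replicate 3 Ccl5 was at 1379 and Cxcl12 at 789.

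The receptors that bind these ligands were mostly low. Among 22 receptor genes, 8 reached the minimum mean, and 0 passed the adjusted threshold in either direction. In 4 of the 8 (Ccr1, Ccr2, Ackr2 and Ccrl2) the groups did not overlap, with the doxorubicin libraries higher, against 19.2% of all genes. The median log2 fold change of the 8 was 0.31. Ccr1, the receptor of Ccl6, Ccl9 and Ccl5, had 9.04, 10.6 and 18.8 with vehicle and 20.9, 56.5 and 123 with doxorubicin (log2 fold change 2.02, SE 0.62, limma adjusted p 0.086). Ccr2, the receptor of Ccl2 and Ccl7 on monocytes, had 15.6 to 20.6 against 21.3 to 29.2 (0.36, adjusted p 0.415). Its groups were apart by less than the value of 1 read in doxorubicin replicate 3 (about 1.48).

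Both receptors of Cxcl12 were within the replicate spread. The signalling receptor Cxcr4 had 77.7 to 82.7 with vehicle and 71.9 to 90.2 with doxorubicin (log2 fold change -0.01, SE 0.17, limma adjusted p 0.972). The scavenger Ackr3, the most abundant receptor gene by normalized count, had 827 to 945 against 717 to 885 (-0.14, SE 0.15, adjusted p 0.528). Ackr2, a decoy that clears inflammatory CC chemokines, had 9.86 to 25.1 against 29.3 to 93.5 (1.36, adjusted p 0.113), and Ccrl2, an atypical receptor, had 98.9 to 105 against 113 to 199 (0.64, adjusted p 0.103). The receptors of the remaining CXC ligands did not reach the minimum mean. Cxcr3 had at most 2.61 in any library and Cxcr6 at most 4.83. Cxcr2, the Cxcl1 receptor of neutrophils, had 0.642 to 0.963 with vehicle and 4.19, 27.7 and 16.0 with doxorubicin. Cx3cr1, the fractalkine receptor of monocytes and macrophages, was 4.80 in doxorubicin replicate 2 and 42.6 to 72.8 in the other 5 libraries (-1.35, SE 0.78, limma adjusted p 0.244).

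Of 28 other chemokine ligands, 13 reached the minimum mean, 5 had zero counts in every library, and 0 passed the adjusted threshold. In 5 of the 13 the doxorubicin group was wholly higher (Ccl3, Ccl8, Ccl12, Cxcl2 and Pf4), against 19.2% of all genes, and in 1 it was wholly lower, against 22.6%. The median log2 fold change was 1.08. Ccl8 and Cxcl3 reached the minimum through the doxorubicin libraries alone, and among the other 11 the wholly higher count was 4 and the median 0.84. Of the 12144 tested genes with a vehicle mean of at least 10, 2251 were wholly higher. Pf4, which platelets and some macrophages carry, had 60.0 to 62.0 with vehicle and 126, 129 and 304 with doxorubicin (1.47, SE 0.34, limma adjusted p 0.086). Ccl3, a Ccr1 ligand of macrophages, had 25.6 to 32.5 against 50.3 to 90.3 (1.08, SE 0.28, adjusted p 0.086). Ccl27a was the wholly lower gene, with 52.3 to 73.0 against 18.6 to 43.9 (-1.21, SE 0.34, adjusted p 0.086). Cx3cl1, the membrane-bound ligand of endothelium, had 160 to 181 against 135 to 256 (0.13, adjusted p 0.722). Cxcl14 had 110 to 194 in the vehicle libraries and 885 in doxorubicin replicate 2, against 168 and 271 in replicates 1 and 3 (1.18, adjusted p 0.170). Ccl21a had 69.3 to 114 against 41.1 to 182 (-0.16, adjusted p 0.844), and its near-identical copies make that row uncertain.

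Genes of chemokine processing and receptor signalling were listed as 18, and 18 of 18 were tested. None passed the adjusted threshold, 14 had doxorubicin libraries wholly above the vehicle libraries, against 19.2% of all genes, and the median log2 fold change was 0.83. Mmp8, Mmp12 and Rgs1 reached the minimum through the doxorubicin libraries alone, and among the other 15 the count was 13 and the median 0.75. The count was 2251 among the 12144 tested genes with a vehicle mean of at least 10. Mmp9, a gelatinase of neutrophils and macrophages that trims chemokines, had 8.20 to 15.3 against 23.2 to 53.2 (1.69, SE 0.42, limma adjusted p 0.086). Mmp14 had 181 to 292 against 312, 1188 and 959 in doxorubicin replicates 1 to 3 (1.65, adjusted p 0.086), and Mmp2 had 440 to 462 against 548, 1592 and 1916 (1.39, adjusted p 0.086). Among receptor-coupled genes, the inhibitory G protein subunit Gnai2 differed by 0.26 (adjusted p 0.292), Gnai3 by 0.89 (adjusted p 0.086), the beta subunit Gnb1 by 0.42 (adjusted p 0.113), beta-arrestin Arrb1 by 0.77 (adjusted p 0.086) and the receptor kinase Grk2 by -0.04 (adjusted p 0.864).

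**Figure D3:**
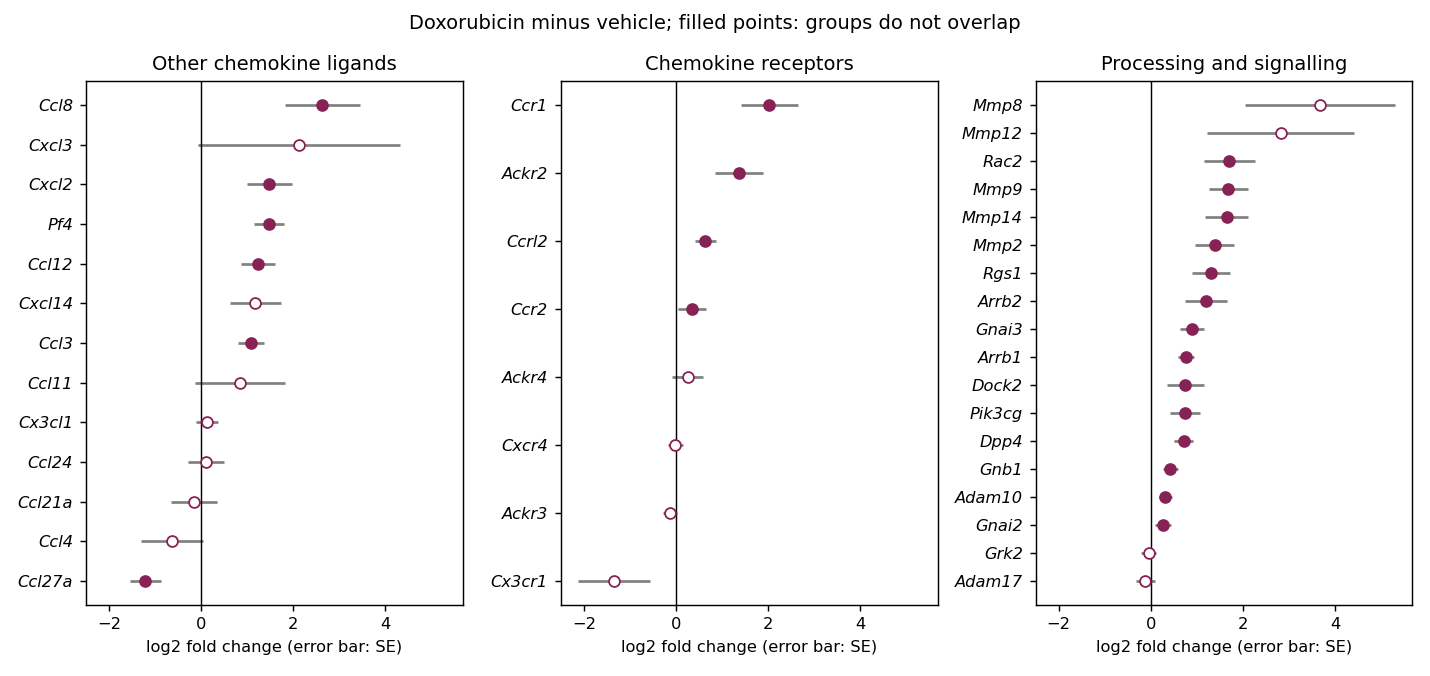
Log2 fold change (doxorubicin minus vehicle, with SE) of the tested genes among other chemokine ligands, chemokine receptors, and processing and signalling genes. Filled points mark the 5 of 13, 4 of 8 and 14 of 18 genes that were wholly higher after doxorubicin and the 1 ligand, Ccl27a, that was wholly lower.

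Markers of other cell types differed between the libraries as well. The 10 macrophage and monocyte markers summed to 2578 to 2784 with vehicle and to 4205, 7415 and 15345 with doxorubicin, and 9 of the 9 tested were wholly higher, against 19.2% of all genes. Adgre1 was 1818 in doxorubicin replicate 3 and 95.1 to 173 elsewhere. The order of that sum, replicate 3 above 2 above 1, was also the order of Ccl2, Ccl5, Ccl9, Cxcl1, Cxcl10 and Cxcl16. For Ccl5 and Cxcl10 the order of replicates 1 and 2 rests on few reads (about 5 and 7, and 10 and 11). Of the 9 tested markers, 7 were highest in doxorubicin replicate 3 and 2 (Cd163 and Mrc1) in replicate 2. The 8 neutrophil markers summed to 10.5 to 21.7 with vehicle and to 55.0, 563 and 419 with doxorubicin, an order also seen in Ccl6. How many of all genes have either order was not counted. Among the neutrophil markers Elane was at 0 in every library and Ly6g reached at most 1.49. All 4 that were tested had a vehicle mean under 10. In bulk RNA, more cells of a type and more RNA per cell cannot be told apart.

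The other marker sums differed less or in other orders. Fibroblast markers summed to 6236 to 8274 with vehicle and to 8639, 22816 and 16406 with doxorubicin. Most of the difference in the sum lay in Dcn, with 18072 and 11326 in doxorubicin replicates 2 and 3. Without it the sum was 3725 to 5369 against 5526, 4744 and 5079. Of the 8 fibroblast markers 3 were wholly higher (Dcn, Pdgfra and Tcf21), against 19.2% of all genes. Col3a1 went the other way in replicates 2 and 3, with 1412 to 2268 against 2220, 740 and 1184. Endothelial markers summed to 13112 to 16872 against 20433 to 26390. Of the 8 endothelial markers 5 were wholly higher, against 19.2% of all genes, and Cdh5, Kdr and Emcn overlapped. Kdr had 3448 to 4340 with vehicle and 5139, 2159 and 3401 with doxorubicin. Cardiomyocyte markers summed to 638541 to 743984 against 552671, 188865 and 161739. Lymphocyte markers were low throughout, with a sum of 20.3 to 53.5 against 14.4 to 85.9, and the highest was in doxorubicin replicate 1. Platelet and erythroid markers summed to 1248 to 2066 with vehicle and to 8991, 396 and 744 with doxorubicin, most of it the haemoglobin gene Hba-a1 (8218 in doxorubicin replicate 1). Without Hba-a1 the sum was 105 to 178 against 772, 152 and 329. Of the 4 markers of this list that were tested, 1 (Pf4) was wholly higher, against 19.2% of all genes. The groups overlapped for the other platelet markers, Ppbp, Itga2b and Gp9, which did not reach the minimum mean. The part of these cell types in the ligand differences was not tested.

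**Figure D4:**
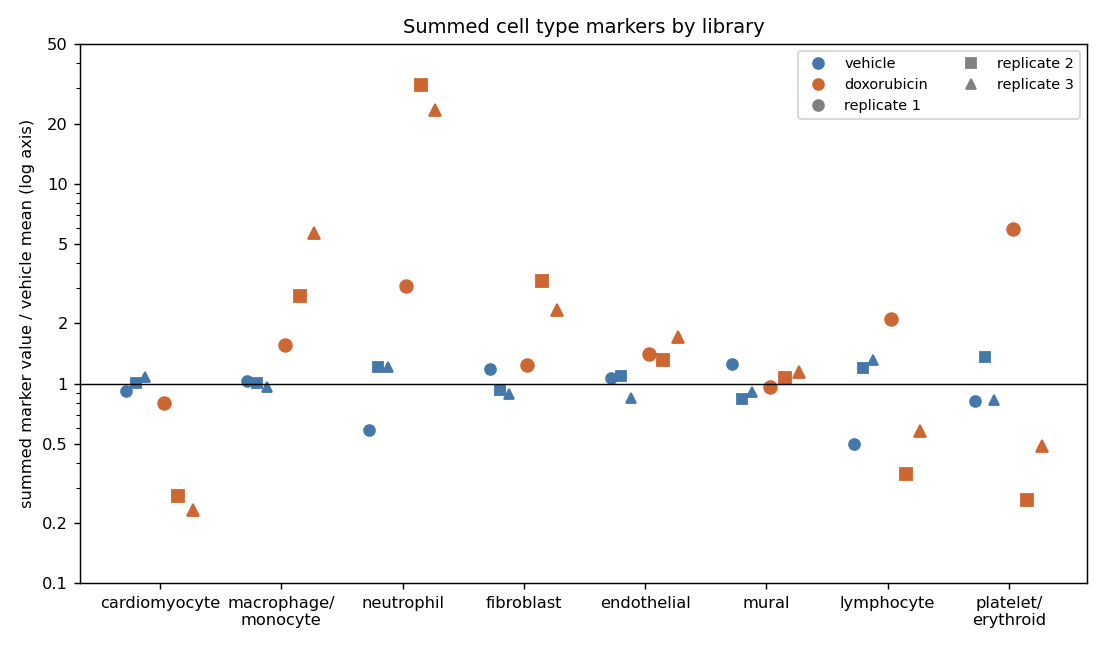
Summed marker values of 8 cell types in each library relative to the vehicle mean (log axis). In doxorubicin replicates 1 to 3 the macrophage and monocyte sum is 1.56, 2.75 and 5.70 times, the neutrophil sum 3.06, 31.3 and 23.3 times and the cardiomyocyte sum 0.797, 0.272 and 0.233 times the vehicle mean. The neutrophil sum was 10.5 to 21.7 normalized counts with vehicle, so its folds rest on few reads.

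Genes with the most similar profile were sought among 12476 tested genes by the root mean square difference, over the 6 libraries, of log2(value + 1) from the vehicle mean. For Cxcl10 these were Rac2 (0.14), Fcer1g (0.15) and Lyz2 (0.16), against a median of 1.51 over all genes. Rac2 encodes a GTPase of blood cells, Fcer1g an Fc receptor chain and Lyz2 the lysozyme of myeloid cells. For Ccl2 they were Nucb2 (0.11), Gsdmd (0.12), which encodes the pore-forming gasdermin D, and Id1 (0.14), against a median of 1.07. For Cxcl12 they were Pla2g2d (0.09), Gng11 (0.09) and Csrnp2 (0.10), against a median of 0.53. These genes were picked as the closest of 12476, so lying far below the median was fixed by the choice. The Cxcl10 profile rests on about 6 to 11 reads in 5 libraries and 44 in doxorubicin replicate 3. Which cells made these transcripts was not tested.

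The libraries also divided by sex-linked transcripts. Xist was 1558 to 2093 and Ddx3y 0 in 3 libraries, vehicle replicate 3 with doxorubicin replicates 1 and 3, and the other 3 libraries had Xist at 0 to 1.92 and Ddx3y at 659 to 958. In 8 of the 10 ligands the doxorubicin difference was positive within both classes, from 0.34 to 3.64 in the class with Y-linked transcripts and from 1.35 to 4.62 in the class with Xist. The exceptions were Cxcl9 and Cxcl12. How many of all genes were positive in both classes was not counted, so the 8 of 10 is not read as particular to the ligands. Each class holds a lone library of 1 treatment, so these are values without a test.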

How the data were processed

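RNA was measured in 6 libraries, 3 vehicle and 3 doxorubicin, grouped by their titles; each is a separate mouse per the labels. Alignment used STAR within BaseSpace RNAseq Alignment (version 2.0.2), mm10 and RefSeq genes, followed by RNA-seq Differential Expression (version 1.0.1), per the labels; per the submitters' processing notes, STAR was version 2.6.1a and Salmon was also used. The authors deposited a non-negative signal, normalized read counts by gene and library; how it was normalized, strand use and filters: not given in the sources used here. Between 80.0% and 92.5% of a library's low values (up to 8.5 steps) lay within 0.1 step of whole multiples of the most common low value, which gave approximate reads; the rest deviated, so counts were not recovered and count tests were not used.

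On the log2 scale with a pseudocount of 1, the 12477 genes whose mean reached 10 (among them 2 rows with a repeated name kept apart) were fitted with limma 3.58.1 in R 4.3.3 (trended empirical Bayes, two-sided, Benjamini-Hochberg, threshold 0.05), after the script was tested on simulated data. With 3 libraries against 3 an exact permutation test cannot go below 0.1, so none is given for single genes. The members and lists were chosen with earlier results of these data known. Named genes are the 10 ligands, with up to 4 of each pathway list by smallest p and up to 4 by mean. Also named are the 3 most similar genes of Ccl2, Cxcl10 and Cxcl12, and genes said to be named after their values were seen. Cell type markers named singly beside the sums, apart from those at 0, were picked with their values known. Receptors of the ligands were named as such; 1 receptor is not reported here and was left out of its list's counts. The promoter patterns were altered more than once after matches in these windows were seen. Alternatives were pseudocounts of 0.5 and 8, no filter, a minimum mean of 50, equal totals, quantile normalization, no trend, robust estimation, library weights, a replicate block, a class covariate from Xist and Y-linked transcripts, and leaving out each library. Figures used matplotlib 3.10.9 in Python 3.11.15.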

Additional observations from a re-analysis of the deposited data

Results flagged for a closer look

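Cxcl9 and Cxcl12 moved in opposite directions in the libraries with Y-linked transcripts and in those with Xist, which the labels do not name as groups. In the first class doxorubicin replicate 2 was below both vehicle libraries, by -1.42 for Cxcl9 and -0.51 for Cxcl12 on the log2 scale, and in the second both doxorubicin libraries were above the single vehicle library, by 0.27 and 0.66 on average. The difference between the classes was -1.69 for Cxcl9 and -1.17 for Cxcl12. Each class holds a lone library of 1 treatment, so a difference between classes was not shown. Doxorubicin replicate 2 is the sole doxorubicin library of its class, so the class and that library cannot be told apart.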

How the results depend on the processing

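The median log2 fold change of the 10 ligands (1.42) stayed positive under 17 alternatives, from 0.92 to 1.71 when a library was left out and from 1.24 to 1.72 otherwise. Library weights, which gave doxorubicin replicate 1 a weight of 0.277, called 1954 genes higher, 2318 lower and 4 ligands (Ccl2, Ccl6, Ccl9 and Cxcl16); leaving out 1 library gave 0 to 2409 higher, 0 to 2718 lower and 0 to 8 ligands. The largest of each came without doxorubicin replicate 1, and without doxorubicin replicate 2 limma called 0 higher and 1 lower. Every other alternative called 0. Cxcl12 reversed to -0.11 with library weights and to -0.11 without doxorubicin replicate 1 (range -0.11 to 0.41 over libraries left out, 0.54 with quantile normalization), and Cxcl9 to 0.17 without doxorubicin replicate 2 (range -0.70 to 0.17); the cause was not tested. With the minimum mean of 50, Cxcl10 was not tested. Deviations of same-numbered libraries from their group means had correlations of -0.13, 0.03 and -0.09, against -0.18 to 0.22 for differently numbered libraries. With 3 libraries per group this cannot tell whether the numbers pair the mice, and no label says that they do. With the replicate block 0 genes were called higher and 0 lower, 0 ligands were called, and the median was 1.42. Ccl5 and Cxcl10 rest on 2 to 8 reads in each vehicle library, which limits their fold changes.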

Other observations

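Several genes of the chemokine lists, chosen after their values were seen, were high in a single doxorubicin library. Cxcl3, a Cxcr2 ligand, had 247 in doxorubicin replicate 3 and 0 to 1.93 in the other 5 libraries. The macrophage elastase Mmp12 had 189 in that library and 0 to 9.58 elsewhere, and the eosinophil receptor Ccr3 had 20.2 against 0 to 1.21. In doxorubicin replicate 2, Cxcl13, the B cell attractant, had 42.1 and 0 to 5.79 elsewhere, and Ccl11, the eosinophil attractant eotaxin, had 68.3 against 3.13 to 24.8. The neutrophil collagenase Mmp8 was high in both, at 64.1 and 52.3, and 0 to 0.645 in the other 4 libraries.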
